A study of Mus musculus with 5 samples.

Results

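CBX2 peaks of mouse embryonic fibroblasts (MEFs) that expressed EZHIP were set directly against those of MEFs that expressed histone H3.3 K27M. All 255 peaks of the EZHIP list and all 327 peaks of the K27M list were members, which is 582 of the 871 CBX2 peaks in the 3 lists at hand. The members were chosen by list membership alone, and the list of the parental cells (Control, 289 peaks) was used only to describe them. Both lines carried a stable lentiviral transgene, for human EZHIP in the EZHIP cells and for H3.3 K27M in the K27M cells, in embryo-derived MEFs with floxed Eed alleles. The transgenes were driven by the constitutive EF1a promoter and the cells were selected with puromycin. The parental cells shared the floxed alleles and no transgene is named for them, and Cre is described only for the Eed deletion line, which is not used here. Chromatin was crosslinked, digested with micrococcal nuclease and immunoprecipitated with a CBX2 antibody. Each list came from 1 library and held only the coordinates of broad peaks on mm9, so the depth and the height of each peak are unknown, no value had a replicate check and no p-value was computed. The lists hold no expression, and the labels of the cells could not be checked against the transgenes or against fibroblast markers. A locus outside a list had no called peak, which does not show that CBX2 was absent there.

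EZHIP and H3.3 K27M are both inhibitors of Polycomb Repressive Complex 2 (PRC2), the enzyme that places H3K27me3, a mark of silenced chromatin. H3.3 K27M is the mutant histone of diffuse midline gliomas, and EZHIP is expressed in ependymomas of the posterior fossa. CBX2 is a chromodomain subunit of PRC1, a complex that binds H3K27me3 and compacts chromatin, typically over CpG islands of developmental transcription factor genes that are silent in the cell type at hand.

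Most CBX2 peaks of the EZHIP cells had a counterpart in the K27M cells, while a larger part of the K27M list stood alone. Peaks were matched when they shared at least 1 bp. A K27M peak met 192 of the EZHIP peaks (75.3%, 95% interval 69.5 to 80.5%). In the other direction 185 K27M peaks (56.6%, 51.0 to 62.0%) met an EZHIP peak. These formed 184 matched sites, of which 175 paired 1 peak with 1 peak. The starts of Olig2, Sox2 and 16 of 39 Hox genes lay in peaks of both lists. Those of Neurog1, Cdx2 and Wt1 lay in K27M peaks alone, and those of Ranbp6, Lmx1b and 20 histone genes in EZHIP peaks alone. In bulk chromatin, fewer cells with CBX2 at a site and less CBX2 per cell cannot be told apart.

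The upstream sequences of 7 genes are printed to show the DNA at gene starts that fell differently between the lists, and the genes were chosen after their values were seen. Each is the 300 bases before the annotated 5′ end of the gene on mm9, written 5′ to 3′ on the strand of the gene, with CpG dinucleotides in capitals. No annotated exon overlaps these windows. Cdx2 (chr5:148118847-148119146, minus strand) and Neurog1 (chr13:56353525-56353824, minus strand) lay in K27M peaks with no EZHIP counterpart. The Gsx2 start (chr5:75471189-75471488, plus strand) lay in a K27M peak whose EZHIP counterpart did not reach it. Olig2 (chr16:91225495-91225794, plus strand) was in both lists. The Hoxd9 start (chr2:74535437-74535736, plus strand) lay in an EZHIP peak whose K27M counterpart did not reach it. Hist1h4i (chr13:22133222-22133521, minus strand) and Ranbp6 (chr19:29887465-29887764, minus strand) lay in EZHIP peaks with no K27M counterpart.
Cdx2: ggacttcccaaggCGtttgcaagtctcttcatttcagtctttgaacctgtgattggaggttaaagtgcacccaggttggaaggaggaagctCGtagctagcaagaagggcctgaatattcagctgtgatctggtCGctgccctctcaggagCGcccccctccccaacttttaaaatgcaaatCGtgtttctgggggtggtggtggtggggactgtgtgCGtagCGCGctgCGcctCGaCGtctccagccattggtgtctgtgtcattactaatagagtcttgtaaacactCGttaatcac
Neurog1: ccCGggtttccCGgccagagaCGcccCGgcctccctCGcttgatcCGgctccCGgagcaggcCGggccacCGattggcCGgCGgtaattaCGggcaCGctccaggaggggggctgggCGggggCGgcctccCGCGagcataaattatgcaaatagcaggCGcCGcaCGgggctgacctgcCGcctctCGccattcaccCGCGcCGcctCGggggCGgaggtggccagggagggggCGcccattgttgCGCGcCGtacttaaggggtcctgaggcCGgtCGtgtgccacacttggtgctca
Gsx2: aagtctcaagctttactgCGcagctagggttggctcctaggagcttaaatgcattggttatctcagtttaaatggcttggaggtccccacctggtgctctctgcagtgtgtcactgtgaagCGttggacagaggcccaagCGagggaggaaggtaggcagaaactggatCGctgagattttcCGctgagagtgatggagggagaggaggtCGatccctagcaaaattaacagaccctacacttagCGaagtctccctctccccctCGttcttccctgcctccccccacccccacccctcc
Olig2: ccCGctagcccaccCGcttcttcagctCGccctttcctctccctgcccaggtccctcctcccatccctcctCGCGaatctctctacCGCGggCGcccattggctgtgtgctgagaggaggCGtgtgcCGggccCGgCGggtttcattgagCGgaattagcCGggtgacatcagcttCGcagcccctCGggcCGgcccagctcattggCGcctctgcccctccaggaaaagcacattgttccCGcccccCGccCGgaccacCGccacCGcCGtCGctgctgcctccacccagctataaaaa
Hoxd9: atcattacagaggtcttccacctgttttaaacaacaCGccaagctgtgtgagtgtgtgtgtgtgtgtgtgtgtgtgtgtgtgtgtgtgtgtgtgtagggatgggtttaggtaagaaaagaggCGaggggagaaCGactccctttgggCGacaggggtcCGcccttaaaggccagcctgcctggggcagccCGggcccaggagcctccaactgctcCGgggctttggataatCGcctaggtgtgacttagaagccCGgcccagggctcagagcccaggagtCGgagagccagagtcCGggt
Hist1h4i: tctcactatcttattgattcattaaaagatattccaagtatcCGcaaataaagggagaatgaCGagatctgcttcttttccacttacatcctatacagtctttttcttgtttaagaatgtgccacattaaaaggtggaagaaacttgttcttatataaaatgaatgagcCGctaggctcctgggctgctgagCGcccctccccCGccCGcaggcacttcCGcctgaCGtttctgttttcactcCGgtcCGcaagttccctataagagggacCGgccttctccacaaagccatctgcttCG
Ranbp6: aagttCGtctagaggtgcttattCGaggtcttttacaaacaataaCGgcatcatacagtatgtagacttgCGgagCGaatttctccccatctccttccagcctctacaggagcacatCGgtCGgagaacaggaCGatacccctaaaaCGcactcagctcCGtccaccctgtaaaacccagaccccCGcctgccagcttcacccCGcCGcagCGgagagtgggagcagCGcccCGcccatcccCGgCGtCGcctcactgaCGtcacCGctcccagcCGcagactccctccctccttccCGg

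Among these windows Neurog1 held 33 CpG dinucleotides, Olig2 25 and Ranbp6 23. As many or more were found upstream of 7.31%, 16.6% and 20.1% of all annotated protein-coding starts, in that order. Cdx2 and Hist1h4i each held 12, Hoxd9 11 and Gsx2 8, against a median of 9 over all starts. CpG-rich and CpG-poorer upstream windows were thus both present among starts held by 1 list and by the other. The same measure had a median of 14.5 for the 154 genes in both lists, 16 for the 26 genes in unmatched EZHIP peaks and 17 for the 76 genes in unmatched K27M peaks. At matched sites it was 21 for the 33 starts held by K27M alone and 9 for the 18 held by EZHIP alone, of which 11 were histone genes. Gsx2 lay below the median of its group and Hoxd9 above that of its group. A CpG island window, defined below, went the other way, with 17 of these 18 EZHIP starts (94.4%) and 27 of the 33 K27M starts (81.8%).

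The peaks that stood alone were narrower than the matched ones in both lists. Unmatched EZHIP peaks had a median width of 4000 bp (3600 to 4600 bp), against 9300 bp (7800 to 10400 bp) for matched EZHIP peaks. Unmatched K27M peaks had a median of 5600 bp (4800 to 6800 bp), against 14400 bp (12400 to 17400 bp) for matched K27M peaks. A wide peak meets a peak of another list more easily, so width and match were not independent. Unmatched peaks covered 301.4 kb in the EZHIP list and 1080.8 kb in the K27M list, beside 2462.2 kb and 3386.2 kb in matched peaks. The narrowest peak was 2200 bp in either list.

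**Figure D1:**
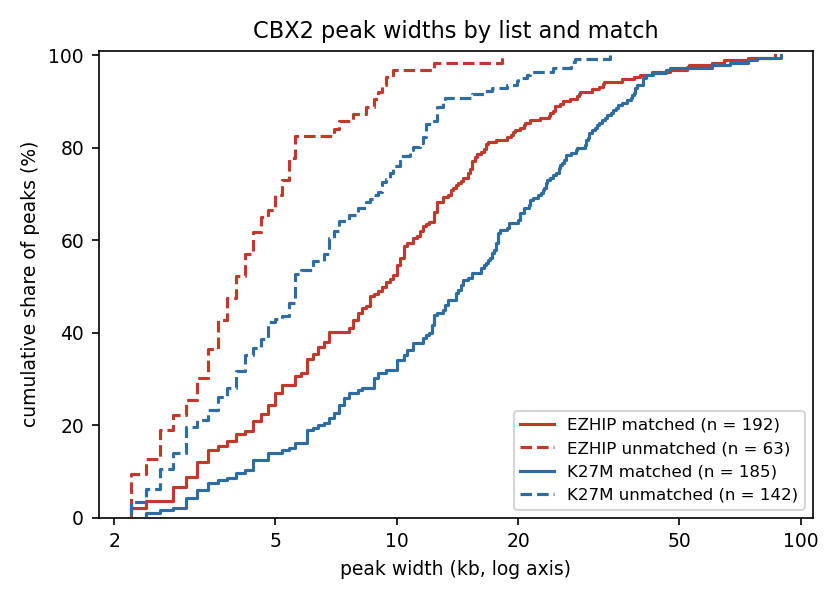
Cumulative share of CBX2 peaks (y axis, %) against peak width (x axis, kb, log axis) for matched peaks (solid lines) and unmatched peaks (dashed lines) of the EZHIP list (red) and the K27M list (blue). The 63 unmatched EZHIP peaks lie furthest to the left, with a median of 4000 bp, and the 185 matched K27M peaks furthest to the right, with a median of 14400 bp.

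In the plot of widths by list and match, the curves of the matched peaks stayed apart except among the widest domains. The unmatched peaks did not lie close to peaks of the other list. None of the 63 unmatched EZHIP peaks and none of the 142 unmatched K27M peaks had a peak of the other list within 10000 bp. Within 50000 bp such a peak was found for 9 EZHIP and 15 K27M peaks, and 44 and 97 of them were more than 1000000 bp away from any.

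The unmatched peaks of the lists differed in their DNA. A CpG island window, here 500 bp with at least 55% G+C and a CpG ratio (observed over expected) of at least 0.65, was present in 123 of 142 unmatched K27M peaks (86.6%, 79.9 to 91.7%) and in 34 of 63 unmatched EZHIP peaks (54.0%, 40.9 to 66.6%). The difference was 32.7 percentage points, with a 95% interval of 19.2 to 45.7 points. Unmatched K27M peaks were also wider, and a wider peak more easily holds such a window. With only peaks of at least 5000 bp in both lists, the unmatched shares were 90.8% for K27M and 70.4% for EZHIP. The part of width in the difference was not tested further. Among matched peaks the shares were 82.2% for K27M and 75.5% for EZHIP, and the interval of that difference, -1.64 to 14.8 points, included 0. CpG dinucleotides occurred at a median of 31.7 per kb (29.1 to 34.2) in unmatched K27M peaks and 20 per kb (13.7 to 27.04) in unmatched EZHIP peaks. The genome as a whole held 8.34 per kb. Intervals treat peaks as independent and cover counting error only, so these differences are between 2 lists and not between replicated conditions.

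Unmatched peaks also differed in how often they held the start of a protein-coding gene, taken as its annotated 5′ end. This was so for 73 of 142 unmatched K27M peaks (51.4%) and 20 of 63 unmatched EZHIP peaks (31.7%), a difference of 19.7 points (4.94 to 32.6). Matched peaks showed a gap in the same direction, 73.0% for K27M and 56.8% for EZHIP (difference 16.2 points, 6.57 to 25.4), with the K27M peaks being the wider ones. A Control peak overlapped 51 of the unmatched K27M peaks (35.9%) and 16 of the unmatched EZHIP peaks (25.4%), and the interval of that difference ran from -3.54 to 22.8 points. Matched peaks were covered by Control in 92.2% (EZHIP) and 92.4% (K27M). Among the peaks that neither Control nor the other list held, 91.2% of 91 K27M peaks and 46.8% of 47 EZHIP peaks had a CpG island window. Multi-copy sequence, where at least 50% of sampled 32-mers occur elsewhere in the genome, made up 10 unmatched K27M peaks (7.04%) and 5 unmatched EZHIP peaks (7.94%).

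At sites that both lists held, the CBX2 peak was usually wider in the K27M cells. The K27M width exceeded the EZHIP width at 150 of 184 matched sites (81.5%, 75.1 to 86.9%), fell short of it at 24 and equalled it at 10. The median log2 of K27M over EZHIP width was 0.39 (0.27 to 0.51), or 1.31-fold, with quartiles of 0.07 and 0.94 and a range from -2.05 to 3.79. Where the overlap had to cover 50% of both peaks, the median was 0.21. That rule admits no pair of peaks more than 2-fold apart in width, so the largest ratios in either direction could not enter. Read depth, which bears on the width a caller gives, is unknown for both libraries. Its part in the greater K27M width was not tested. A K27M peak at least 2-fold wider was found at 43 sites (23.4%) and an EZHIP peak at least 2-fold wider at 6 sites (3.26%). The 159 sites outside multi-copy sequence had a median of 0.42 (0.29 to 0.53) and the 25 multi-copy sites a median of 0.12 (0.05 to 0.55). The 137 sites with a protein-coding start in either list had a median of 0.45 (0.29 to 0.55). The 47 sites without had 0.20 (0.11 to 0.51). The intervals overlapped in both comparisons, and 81.0% of sites with a start and 83.0% of those without were wider in K27M.

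**Figure D2:**
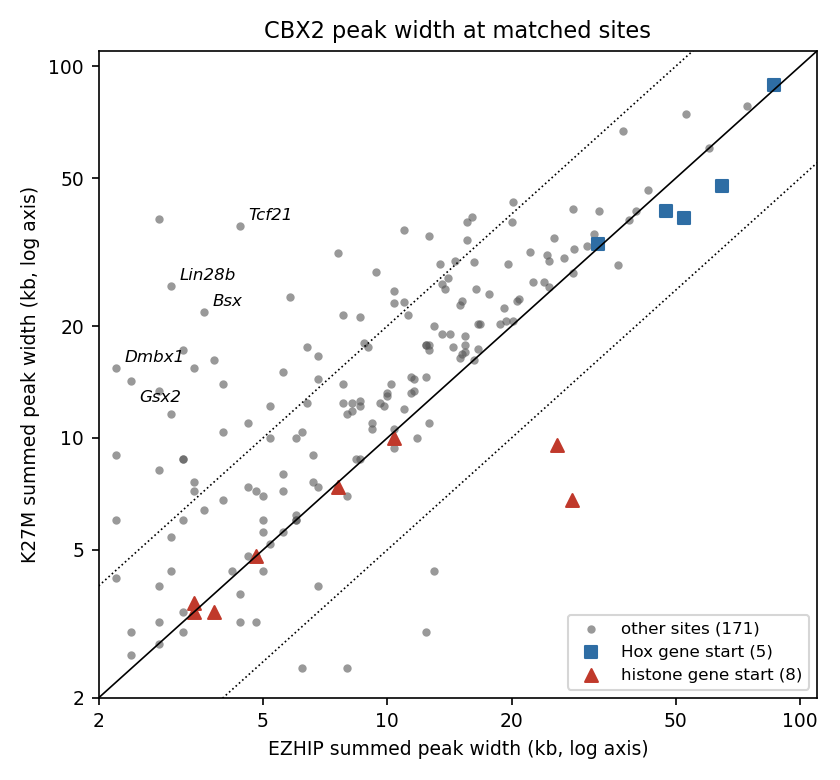
Summed width of K27M peaks (y axis, kb, log axis) against summed width of EZHIP peaks (x axis, kb, log axis) at each of the 184 matched sites, with sites that hold a Hox gene start as squares, those that hold a histone gene start as triangles and all others as circles. The solid line marks equal width and the dotted lines 2-fold differences. Most circles lie above the solid line, while 3 of 5 squares and 5 of 8 triangles lie below it.

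In the plot of matched widths, the highest ratios were at sites narrow in the EZHIP cells. EZHIP width is the divisor of the ratio, so this follows in part from the choice of sites and is no separate result. At Tcf21, a mesodermal bHLH factor, the peak measured 4400 bp in EZHIP and 37200 bp in K27M (log2 ratio 3.08), with 18200 bp in Control. At Lin28b, which encodes a repressor of let-7 microRNA maturation, the peaks were 3000 bp and 25600 bp (log2 3.09), with 22400 bp in Control. The gene start there lay only in the K27M peak, 11601 bp from the EZHIP peak. The homeobox genes Bsx (3600 bp and 21800 bp, log2 2.60), Dmbx1 (2200 bp and 15400 bp, log2 2.81) and Gsx2 (2400 bp and 14200 bp, log2 2.56) were of the same kind. No peak was under 2200 bp, so a site that narrow in one list could not be narrower in the other.

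Hox genes encode the homeodomain factors that set position along the body axis. Of 5 matched sites that held a Hox start, 2 were wider and 3 narrower in K27M. The Hoxc domain, the largest site of all, measured 86400 bp in EZHIP and 89200 bp in K27M, with 91600 bp in Control. The Hoxd domain measured 64600 bp in EZHIP and 47600 bp in K27M (log2 -0.44), and the Hoxa domain 52200 bp and 39000 bp (log2 -0.42). Near Hoxb13 the peaks were 47400 bp and 40800 bp, and at Hoxb8 and Hoxb9 32400 bp and 33200 bp. The median log2 ratio of the 5 sites was -0.22, and in sum EZHIP covered 283 kb and K27M 249.8 kb. Control widths were 46200 bp at Hoxd and 42400 bp at Hoxa, closer to K27M than to EZHIP at both. The remaining large sites were a domain at Sfi1, which encodes a centrosomal protein, with 74200 bp in EZHIP and 78000 bp in K27M, and a multi-copy region on chromosome 8 at the gene model Gm15319, with 53000 bp and 74200 bp. Of the latter, 91.5% of the sampled EZHIP sequence and 88.0% of the K27M sequence occurs more than once in the genome.

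Sites grouped by their Control width showed the excess of K27M in each group. The medians were 0.40, 0.51 and 0.51 in the 3 groups of narrower Control width (2200 to 6400 bp, 6800 to 11800 bp and 12400 to 19200 bp) and 0.18 among sites of 19800 to 91600 bp. In the same order, 69.8%, 90.5%, 95.3% and 78.6% of the sites were wider in K27M. The 14 matched sites without a Control peak had a median of 0.15, with an interval of -0.77 to 1.16 that included 0.

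The K27M peaks usually extended past the EZHIP peaks at both ends. Among the 175 sites that paired 1 peak with 1 peak, K27M reached further on both sides at 111, and EZHIP on both sides at 10. At 32 sites each list reached further on 1 side. At 13 sites 1 edge was shared and K27M was longer at the other, at 2 EZHIP was longer at the other, and at 7 both edges coincided. The median reach of K27M past EZHIP was 1400 bp (800 to 1800 bp) at the lower coordinate and 1200 bp (1000 to 1600 bp) at the higher. Both edges lay within 1000 bp of each other at 38 sites.

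**Figure D3:**
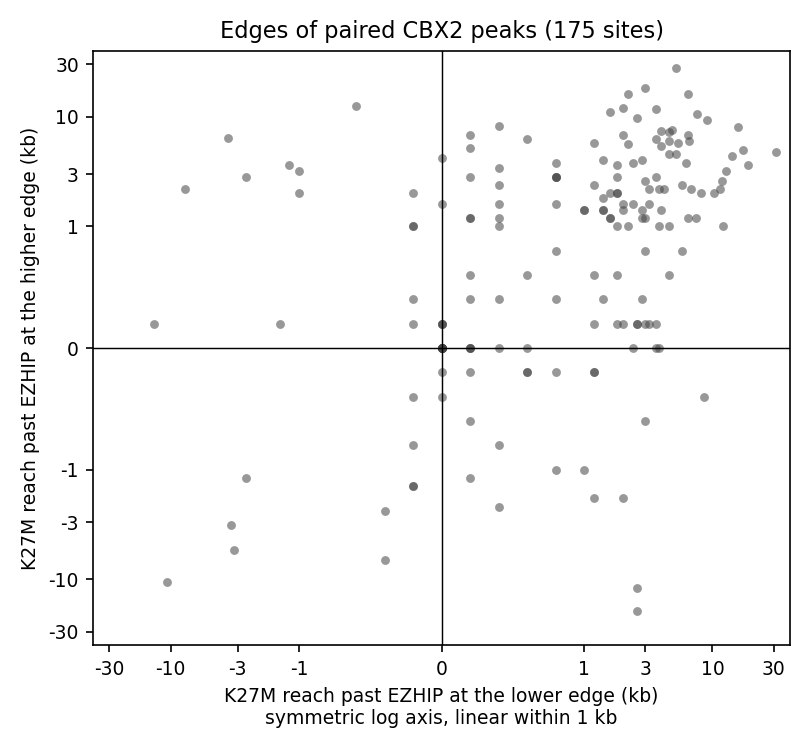
Distance by which the K27M peak reached past the EZHIP peak at its higher edge (y axis, kb) against the same at its lower edge (x axis, kb) for the 175 sites that paired 1 peak with 1 peak. The axes are symmetric logs, linear within 1 kb, and negative values mean that EZHIP reached further. The upper right part holds the 111 sites where K27M reached further on both sides, and the lower left holds 10.

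The plot of edges gives the lower and higher coordinates, and the reach was also measured relative to gene direction. At 105 sites that held a single protein-coding start, the K27M peak reached a median of 2000 bp further upstream of the gene (1400 to 2400 bp) and 2000 bp further downstream (1400 to 3000 bp). It went further upstream at 49 sites and further downstream at 50, with 6 equal. Within matched sites, the 2310.6 kb covered by both lists held 25.3 CpG per kb. The 1075.6 kb covered by K27M alone held 18.6 per kb and the 151.6 kb covered by EZHIP alone 22.9 per kb, all above the 8.34 per kb of the genome.

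Gene starts followed the same split. Of 22208 protein-coding genes, 198 (0.892%) had their start in an EZHIP peak and 263 (1.18%) in a K27M peak, with 154 (0.693%) in both. These 154 were 77.8% of the EZHIP genes and 58.6% of the K27M genes. Only the EZHIP list held 44 (0.198%), 26 of them (0.117%) in unmatched peaks, and only the K27M list held 109 (0.491%), 76 of them (0.342%) in unmatched peaks. With the overlap of 50% of both peaks, the genes in unmatched peaks numbered 60 for EZHIP and 121 for K27M. For EZHIP the number was 46 where a start within 1000 bp of a peak counted, and 16 at a minimum width of 5000 bp or without peaks at histone genes. A CpG island window was found at the start of 53.4% of all genes, 79.2% of the genes in both lists, 89.5% of those in unmatched K27M peaks and 26 of the 26 in unmatched EZHIP peaks. Among unmatched peaks without a protein-coding start, such a window was present in 32.6% of the 43 in the EZHIP list (14 peaks, 19.1 to 48.5%) and 76.8% of the 69 in the K27M list (53 peaks, 65.1 to 86.1%). Control held the start of 94.8% of the genes in both lists, and of 13 of 76 (17.1%) and 5 of 26 (19.2%) in unmatched K27M and EZHIP peaks.

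Members of developmental gene families were found among the genes in both lists, in K27M alone and in EZHIP alone. A list of 22 families and pathways, chosen with earlier results of these lists known, held 401 genes or 1.81% of all protein-coding genes. They made up 38.3% of the genes in both lists and 30.3% (23 of 76) of the genes in unmatched K27M peaks, and 7.69% (2 of 26) of the genes in unmatched EZHIP peaks. Among starts held by 1 list at a matched site, family members made up 5 of 18 (27.8%) for EZHIP and 10 of 33 (30.3%) for K27M. By gene, 59 of the 401 were in both lists, 33 in K27M alone and 7 in EZHIP alone. Control held 57, 11 and 0 of these. No test was run on these counts.

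**Figure D4:**
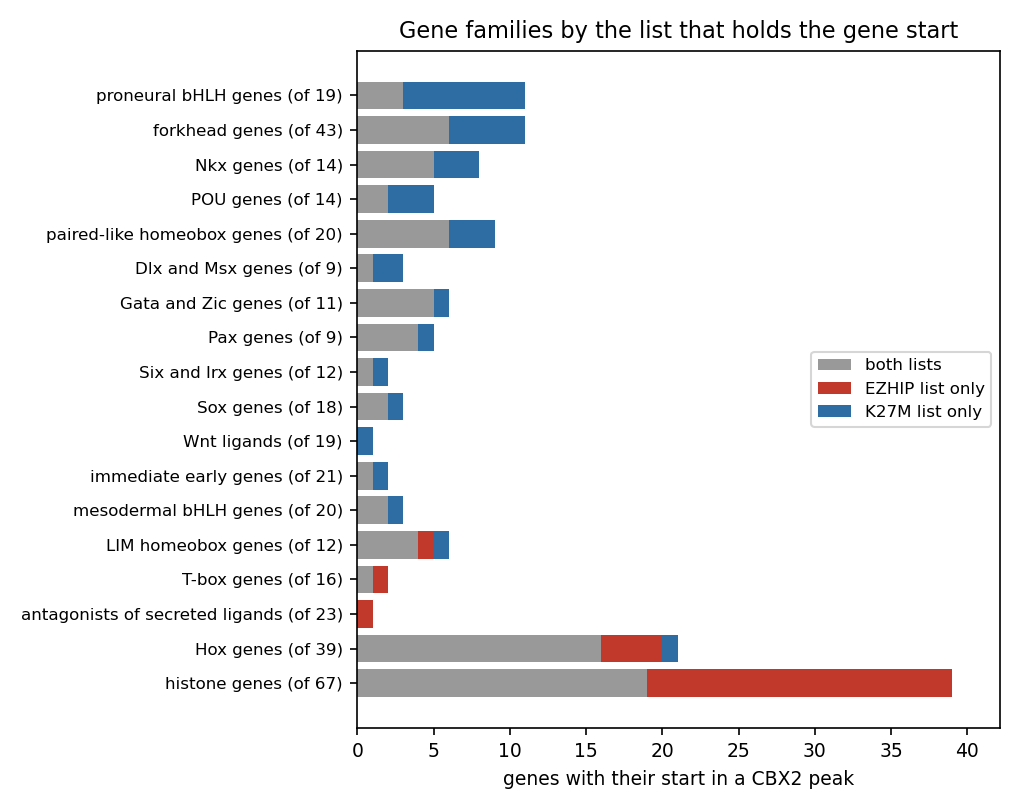
Number of genes (x axis) of each family (y axis, with the number of members) whose start lay in peaks of both lists (grey), of EZHIP alone (red) or of K27M alone (blue). Families with no start in either list are left out. Proneural bHLH genes have the longest blue bar (8 of 19) and histone genes, a group chosen after its values were seen, the longest red bar (20 of 67).

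The plot of families places the proneural and oligodendrocyte bHLH genes, which drive neurogenesis and oligodendrocyte formation, at the K27M end. Of 19 members, 3 were in both lists and 8 in K27M alone. Ptf1a, which specifies pancreatic and cerebellar cells, lay in a K27M peak of 12400 bp. Neurog1 (11400 bp), Neurod1 (9800 bp), Atoh1 (9200 bp) and Bhlhe22 (6600 bp) also stood in unmatched K27M peaks, and of these 5 starts only that of Bhlhe22 lay in a Control peak. Neurod2 lay in a K27M peak of 12200 bp, with its start 362 bp outside the EZHIP peak. Olig1 stood in a K27M peak of 4800 bp, while its neighbour Olig2 was in both lists with 6400 bp in EZHIP and 17600 bp in K27M. The other shared members were Olig3, with 13400 bp in EZHIP and 29400 bp in K27M, and Neurog2, with 18800 bp and 20200 bp, and all 3 shared starts lay in Control peaks.

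Forkhead genes had 6 starts in both lists and 5 in K27M alone, namely Foxa2 of the endoderm and floor plate, Foxb2, Foxe1, Foxf2 and Foxi3. Nkx genes had 5 in both and 3 in K27M alone, among them Nkx2-1, which specifies lung, thyroid and ventral forebrain and had its start in a K27M peak of 31400 bp, 4495 bp outside the EZHIP peak. Paired-like genes had 6 in both and 3 in K27M alone. Among the latter was Rax, a gene of the early eye field, in a K27M peak of 4200 bp. Dlx and Msx genes had 1 in both and 2 in K27M alone, Dlx4 (7200 bp) and Msx1 (12600 bp), which act in craniofacial and limb development. Sox14 (12400 bp) was in K27M alone, and 2 Sox genes, Sox2 and Sox21, were in both. The sensory neuron factors Pou4f1, Pou4f2 and Pou4f3 were all in K27M alone, with 2 other POU genes in both. Pax3 (21400 bp), Lhx5 (16400 bp), Six3 (24000 bp) and Hand2 (9600 bp), regulators of neural crest, forebrain and heart, were each the only K27M-alone member of their family. A Control peak held the start of Six3 but not those of Pax3, Lhx5 or Hand2. Control peaks did overlap the K27M peaks at Pax3 and Lhx5 away from their starts.

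Of the 7 family members in EZHIP alone, 4 were Hox genes. The Hox family had 16 members in both lists, 4 in EZHIP alone (Hoxa7, Hoxd3, Hoxd8 and Hoxd9) and Hoxc8 in K27M alone. All 4 stood at the edge of a shared domain, with Hoxd9 2737 bp, Hoxa7 9148 bp, Hoxd8 9672 bp and Hoxd3 16986 bp outside the K27M peak, and none was in a Control peak. Hoxc8 lay 4653 bp outside the EZHIP peak. Lmx1b, a LIM homeobox gene of dorsal limb and kidney, stood in an unmatched EZHIP peak of 12400 bp, and Wif1, a secreted Wnt antagonist, in another of 5600 bp. The start of the T-box gene Tbx2 lay in an EZHIP peak of 4400 bp and 1148 bp outside the K27M peak.

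With 0.892% of all protein-coding starts in EZHIP peaks and 1.18% in K27M peaks, families of this size can have no start in a list without differing from other genes. No start of the 22 Fgf ligands, the 20 Bmp and Gdf ligands, the 3 hedgehog ligands, the 7 cell-cycle inhibitors or the 30 Polycomb subunits lay in a peak of either list. Of 19 Wnt ligands only Wnt3 did, in a K27M peak of 2600 bp. Of 21 immediate early genes, which are induced rapidly by growth signals, Egr1 was in both lists with 5000 bp in EZHIP and 5600 bp in K27M, and Ier2 in K27M alone with 2800 bp.

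Histone genes made the largest group held by EZHIP alone, and this group was chosen after its values were seen. They encode the histones made during DNA replication and sit in clusters of near-identical copies. Of 67 genes, 19 had their start in peaks of both lists, 20 in EZHIP alone and 0 in K27M alone. Of the 20, 11 lay in the wide EZHIP peaks at Hist1h1d and Hist1h1a and 9 in unmatched EZHIP peaks. Several starts shared the same peak, so these counts are of genes and not of separate sites. The 13 EZHIP peaks that held them covered 118.2 kb and the 8 K27M peaks 42.2 kb. Control held all 19 of the shared starts and 11 of the 20 in EZHIP alone. At Hist1h1d on chromosome 13 the EZHIP peak measured 28000 bp and the K27M peak 6800 bp (log2 -2.04), with 31200 bp in Control. At the nearby site of Hist1h1a, Hist1h1c and Hist1h3a the widths were 25800 bp in EZHIP, 9600 bp in K27M and 25800 bp in Control (log2 -1.43). Over the 8 matched sites with a histone start the median log2 ratio was -0.05, with 5 sites narrower in K27M, 2 equal and 1 wider. The share of multi-copy sequence ran from 7.14 to 100% in the EZHIP peaks and from 0 to 100% in the K27M peaks. The EZHIP peaks that held the 20 starts in EZHIP alone were 7.14 to 16.7% multi-copy. Removal of peaks of at least 50% multi-copy sequence left this number at 20 and could not have lowered it. The part of multi-copy sequence below that threshold was not tested. Without Hox and histone sites, 171 matched sites had a median log2 ratio of 0.47 and 86.0% were wider in K27M. Both groups set aside held more sites narrower than wider in K27M. The higher values than over all sites thus follow from the choice and are no separate result.

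The remaining sites with the lowest ratios were single genes. Chn1, a Rac GTPase-activating protein, had 6200 bp in EZHIP and 2400 bp in K27M (log2 -1.37), with its start 598 bp outside the K27M peak. Zswim5 had 4800 bp and 3200 bp (log2 -0.58), and Tbx2 4400 bp and 3200 bp (log2 -0.46).

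The starts that only 1 list held at a matched site lay near the edge of the other peak. At matched sites 33 genes were in K27M alone, at a median of 1863 bp (84 to 12605 bp) outside the EZHIP peak, and 16 of them (48.5%) were in Control peaks. In EZHIP alone there were 18, of which 11 were histone genes, at a median of 3110.5 bp (100 to 16986 bp) outside the K27M peak, and 8 of them (44.4%) were in Control peaks. The closest in K27M alone were Tcfap2e (84 bp), Foxi3 (125 bp) and Prdm6 (201 bp). Among the furthest were Lin28b (11601 bp) and Foxf2 (7485 bp). A difference of a few bins of 200 bp thus placed some starts on either side.

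**Figure D5:**
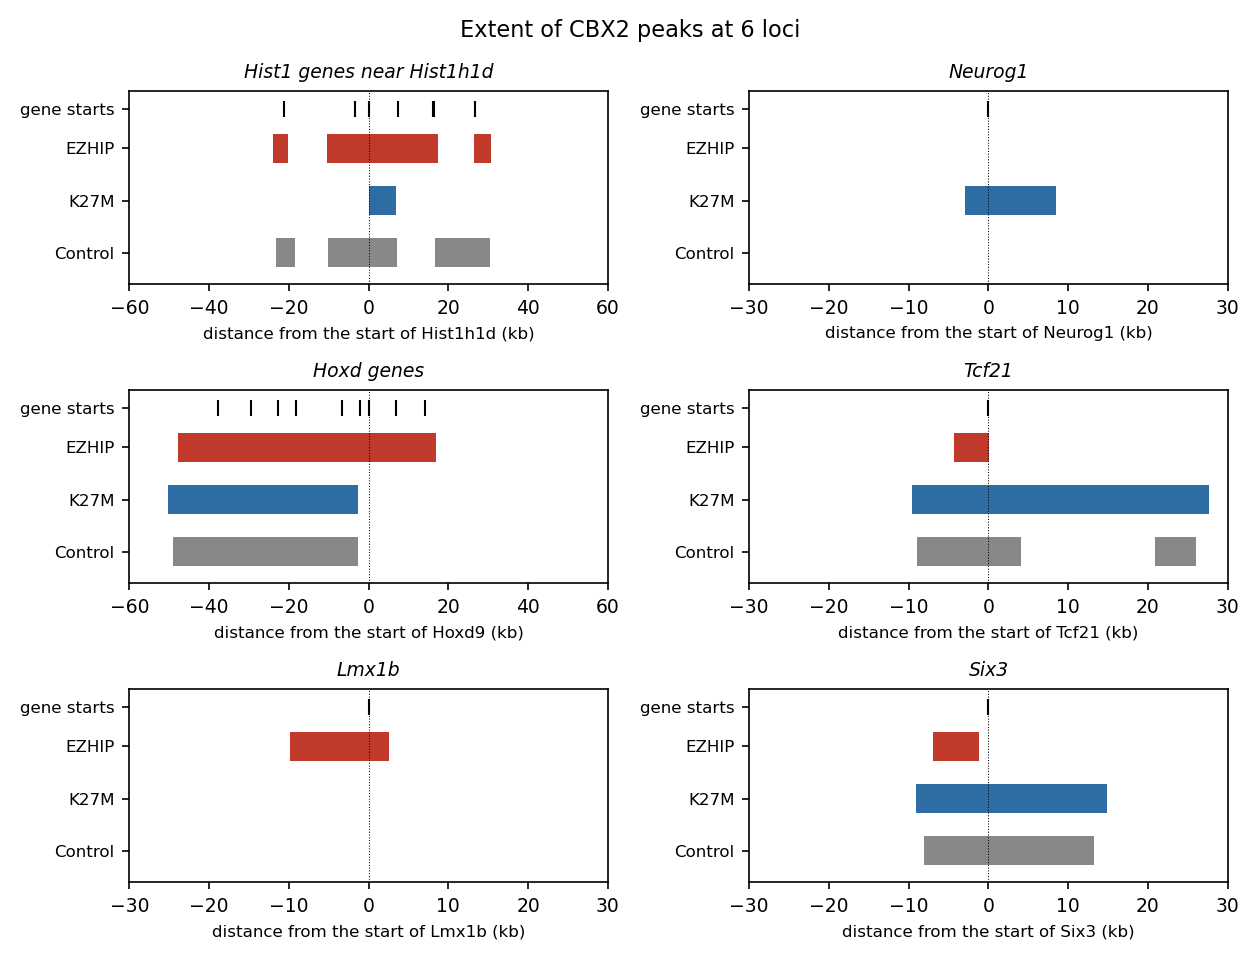
Extent of CBX2 peaks (bars) of EZHIP (red), K27M (blue) and Control (grey) around the gene starts of Hist1h1d, Hoxd9, Lmx1b, Neurog1, Tcf21 and Six3, with the distance from that start in kb on the x axis. Ticks mark protein-coding starts that lay in an EZHIP or K27M peak. EZHIP bars are longer at the Hist1 genes, Hoxd and Lmx1b, and K27M bars at Neurog1, Tcf21 and Six3.

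The widest unmatched peaks with a protein-coding start were wider in the K27M list. There Wt1, a kidney and gonad factor, led with 27600 bp, followed by the intestinal homeobox gene Cdx2 with 24400 bp. Pax3 was followed by En1, a midbrain and limb homeobox gene, with 20000 bp. Prss16, a thymus protease gene beside the Hist1 cluster, had 18800 bp, Lhx5 had 16400 bp, and the forebrain gene Fezf1 and the homeobox gene Onecut3 had 15400 bp and 13200 bp. Control peaks held the starts of Wt1, En1 and Fezf1. They also overlapped the K27M peaks at Cdx2, Pax3, Prss16 and Lhx5, away from those gene starts. In the EZHIP list, after Lmx1b, the widest were the Hist3h2a, Hist3h2ba and Trim17 peak with 9800 bp, Ranbp6, a nuclear import factor, with 8400 bp, and the Hist1h2ag, Hist1h2bj and Hist1h4i peak with 7800 bp. The RNA-binding protein genes Igf2bp1 (7000 bp), Zfp36l2 (5000 bp) and Cpeb2 (4400 bp), another Hist1 peak with Hist1h2bm and Hist1h3h (5600 bp), Wif1 and the nuclear receptor gene Nr2f1 (4400 bp) completed the 10 widest. Among these EZHIP peaks, Control overlapped those at Hist3h2ba, Igf2bp1, Wif1, Zfp36l2 and Nr2f1 and not the others. The loci plot shows the peak at Lmx1b in EZHIP with none in K27M or Control, and that at Neurog1 in K27M with none in EZHIP or Control.

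The ParaHox cluster on chromosome 5, chosen after its values were seen, held a shared start and starts in K27M alone within a short stretch. Pdx1, a pancreas and duodenum factor, was in both lists with 6800 bp in EZHIP and 16600 bp in K27M. Gsx1, a neural progenitor factor, lay in a K27M peak of 7600 bp and Cdx2 in the K27M peak of 24400 bp, with no EZHIP peak at either. The Cdx2 start was 31846 bp and the Gsx1 start 79929 bp from the nearest EZHIP peak, which was that at Pdx1. Control held the start of Pdx1 and neither of the others, although a Control peak overlapped the K27M peak at Cdx2 away from the start.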

How the data were processed

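CBX2 ChIP-Seq peaks of Control, EZHIP and K27M MEFs were analysed, 1 library each. Labels of K27R and EEDnull libraries also exist, which were not analysed here. Groups were taken from the labels. The authors aligned reads to mm9 and to a spike-in reference with bowtie1 at default settings (Bowtie 1.0.0 per the labels' processing notes, which also name deepTools) and called broad peaks per library with MOSAiCS-HMM. The calls used a maximum gap setting of 10000 bp. A called width can thus take in neighbouring enriched stretches and the DNA between them. Whether an input library or scaling entered the calls is not given in the sources used here. A default bowtie1 run reports 1 position for a read that matches several, so multi-copy sequence can gather reads. Each deposited file held chromosome, start and end, with no counts, score or fold. Starts were multiples of 200 bp and ends lay 199 bp above one, so peaks were read as whole bins and written 1-based. The depth is unknown, and called number and width move with it.

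Sequence came from NCBIM37, the assembly of mm9, and gene 5′ ends from GENCODE vM1. Peaks were matched at an overlap of at least 1 bp, and chains of overlapping peaks formed a site. The log2 of summed K27M over summed EZHIP width was taken per site. CpG island windows of 500 bp moved in steps of 50 bp. Multi-copy peaks had at least 50% of their 32-mers, sampled every 100 bp, more than once in the genome. Percentages carry exact Clopper-Pearson 95% intervals, medians binomial order-statistic intervals and differences of percentages Newcombe intervals. The matching and the width ratios were tested on simulated data, with numpy 2.4.6, pandas 2.3.3, scipy 1.17.1 and statsmodels 0.14.6.

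The members, families and lists were chosen with earlier results of these data known. Named sites were the 3 largest matched sites, the 5 with the highest and the 5 with the lowest width ratio among sites with a protein-coding start outside multi-copy sequence, the 10 widest such unmatched peaks per list, starts held by 1 list at a matched site, and family members. Some genes under these rules are not reported here. Other genes are marked as chosen after their values were seen. Alternatives covered minimum width, joining of neighbours within 10000 bp, other overlap rules, equal numbers of peaks, autosomes, multi-copy and CpG island filters, other definitions of a start, and, added after seeing the data, removal of peaks at histone genes.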

Additional observations from a re-analysis of the deposited data

How the results depend on the processing

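Besides 2 settings that changed nothing (a minimum of 2200 bp, which removed no peak, and matching across gaps of up to 10000 bp), 142 values of 15 results were recomputed. Of these, 126 stayed within the 95% interval of the value given, or within 1.5 times it for counts, and 0 reversed. Some of them could not change. The number of genes in both lists does not use the overlap rule, and equal numbers kept the whole EZHIP list. The share of EZHIP peaks matched was 83.7% among peaks of at least 5000 bp, 67.1% with equal numbers of the widest peaks and 51.0% where the overlap had to cover 50% of both peaks. The share of K27M peaks matched was 63.9% with equal numbers, 50.9% among CpG island peaks and 39.8% at 50% of both peaks. At 50% of both peaks the median log2 width ratio was 0.21 and the median reach at the higher edge was 800 bp. That rule admits no pair of peaks more than 2-fold apart in width. Under it the genes in unmatched EZHIP and K27M peaks numbered 60 and 121, including genes whose start lay in peaks of both lists. With equal numbers 87.1% of sites were wider in K27M. That setting dropped only the narrowest K27M peaks, so under it the share of EZHIP peaks matched could not rise. Genes in unmatched EZHIP peaks numbered 16 at a minimum of 5000 bp, 46 with a start within 1000 bp of the peak, and 16 without histone peaks, an alternative added after seeing the data. The share of unmatched peaks with a CpG island window was 70.4% for EZHIP and 90.8% for K27M at 5000 bp. With stricter windows of 60% G+C and a ratio of 0.75 it was 42.9% for EZHIP and 71.1% for K27M. Beyond what the settings fix in advance, the cause of these changes was not tested here. No paired analysis was possible because there was a single library in each group, which also kept any from being left out. Unknown depth limits all comparisons of number and width, and absence from a list is only the absence of a call.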

Other observations

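All 20 unmatched EZHIP peaks with a protein-coding start had a CpG island window. The 43 EZHIP peaks without such a start had a median width of 3800 bp (3200 to 4600 bp) and the 69 K27M peaks one of 4600 bp (3800 to 5600 bp). Of the EZHIP peaks 27 lay in or over a protein-coding gene away from its start, and of the K27M peaks 40 did. A Control peak overlapped 8 of these 43 EZHIP peaks (18.6%, 8.39 to 33.4%). For the 69 K27M peaks the number was 29 (42.0%, 30.2 to 54.5%). The widest EZHIP peak among them, chr2:94019201-94037400 on mm9, measured 18200 bp, had no CpG island window, overlapped an annotated miRNA gene and had no Control peak. The widest K27M peak, chr8:19999601-20033400, measured 33800 bp and was multi-copy (87.6% of sampled sequence). The next, chr5:67599401-67626600, measured 27200 bp, had a CpG island window, lay over no annotated gene and overlapped a Control peak.

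The site with the highest width ratio of all held no protein-coding start. It lay at chr17:85854201-85893000, with 2800 bp in EZHIP, 38800 bp in K27M and 10600 bp in Control (log2 3.79), and had a CpG island window in both lists. The lowest ratio, at chr8:71995801-72010800, was at a multi-copy site with 12400 bp in EZHIP and 3000 bp in K27M (log2 -2.05) and no Control peak.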
